A study of Mus musculus with 12 samples.

Results

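The genes described here are 10 regulators of oxidative metabolism in muscle. They are the coactivators Ppargc1a, Ppargc1b and Perm1, the estrogen-related receptors (ERRs) Esrra, Esrrb and Esrrg, the peroxisome proliferator-activated receptors (PPARs) Ppara and Ppard, and the DNA-binding factors Nrf1 and Gabpa. They were taken by symbol from a deposited table of 17752 genes, and all 10 were among the 12744 genes that were tested. The table holds RNA levels in FPKM, that is, sequenced fragments scaled to the length of the transcript and the size of the library. Each library came from the extensor digitorum longus (EDL) of male mice, a small hind-limb muscle made almost wholly of fast-twitch fibers. There were 3 libraries in each of 4 groups: sedentary mice labelled WT, trained mice labelled WT, sedentary mice labelled strNrip1-/- and trained mice labelled strNrip1-/-. Training was voluntary running on a wheel, begun at 8 weeks of age, and the sedentary mice were of the same age at the start. Mice that ran too little were removed from the training study by its authors, and wheels were taken away before the endpoints. In strNrip1-/- mice, a Cre recombinase driven by the muscle creatine kinase promoter, which is active in heart and skeletal muscle, removes a floxed exon of Nrip1, the gene of the corepressor RIP140. The controls were littermates without Cre, so that the floxed gene is intact in them and in the cells of a strNrip1-/- muscle that do not express Cre. The labels do not say which mouse each library came from, and p-values therefore measure the spread between these libraries only.

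The PGC-1 coactivators bind no DNA themselves. They are recruited by nuclear receptors such as the ERRs and PPARs and by the nuclear respiratory factors, and bring in enzymes that open chromatin and start transcription. In muscle, this circuit is known for setting the capacity to burn fatty acids, for building mitochondria and for responding to exercise, and RIP140 is known as a repressor that is recruited by several of the same receptors. The ERRs bind DNA without a known natural hormone and act on genes of the citric acid cycle and the respiratory chain. PPARs bind DNA as partners of the retinoid X receptors, respond to fatty acids and act on genes of fatty acid uptake and oxidation. NRF1 and GABP act on housekeeping genes of the respiratory chain and of mitochondrial DNA expression.

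The targeted gene went against its labels. Nrip1 stood at 3.33 ± 0.689 FPKM (SD, n = 3) in the sedentary and 3.62 ± 1.12 FPKM in the trained libraries labelled WT, and at 15.5 ± 0.680 FPKM and 17.4 ± 3.02 FPKM in the sedentary and trained libraries labelled strNrip1-/-. The gene-level value does not separate transcripts that hold the floxed exon from those that lack it, so it is no check of the deletion. Whether labels were exchanged cannot be told from it either, and every direction below is that of the labels. Depth, estimated from the spacing of low values, differed by less than 1.5 times between the shallowest and the deepest library. A gene with the level of Esrrb, the lowest of the 10, and an assumed length of 2 kb would hold between 41 and 118 fragments at these depths, and Perm1 between 4676 and 10300. Fast-fiber markers were abundant in all 12 libraries, with sums between 75720 and 114800 FPKM, and none of the 53 marker genes examined was at 0 throughout a group. Several sums moved with the genotype label. The fast-fiber sum was 75720 to 96630 FPKM in the sedentary libraries labelled strNrip1-/- against 97470 to 106200 FPKM in those labelled WT, and 83530 to 87240 FPKM against 96260 to 114800 FPKM in the trained ones. The sum of 5 general muscle markers was also lower, at 24010 to 30470 FPKM against 33210 to 36110 FPKM when sedentary and 30140 to 31550 FPKM against 33510 to 41500 FPKM when trained. Sums follow their most abundant genes, and not all members moved alike. Acta1 and Ckm averaged 17689 and 13349 FPKM, and Des and Ttn 961 and 152 FPKM. The log2 difference of Des was -0.02 when sedentary and 0.25 when trained, and that of Ttn -0.14 and -0.02. Of the muscle markers, 0 of 5 had a higher estimate when sedentary and 1 of 5 when trained. Of the 8 fast-fiber markers, 1, Myh1, had a higher estimate in both comparisons (log2 0.22 and 0.38). The sum of 6 endothelial markers was higher in the libraries labelled strNrip1-/- (87.9 to 98.5 FPKM against 78.8 to 85.2 FPKM when sedentary, and 94.4 to 100.4 FPKM against 78.0 to 91.9 FPKM when trained). The sum of 7 adipocyte markers was 43.3 to 119.8 FPKM against 12.6 to 25.5 FPKM in sedentary libraries, and overlapped in trained ones (43.8 to 114.1 FPKM against 36.5 to 77.0 FPKM). Slow-fiber sums overlapped in both comparisons (153 to 433 FPKM against 128 to 418 FPKM, and 181 to 332 FPKM against 116 to 722 FPKM). The sum of 722 FPKM was that of trained library 2 labelled WT. Of the 8 slow-fiber genes, 2 had a higher estimate with the strNrip1-/- label when sedentary and 1 when trained, with Myl2 among them in both (log2 1.64 and 1.44). Mitochondrial transcripts took 51.2% to 52.8% of the summed FPKM in the sedentary libraries labelled strNrip1-/- and 42.2% to 47.3% in the other 9. With the WT label, sums also moved with training, given as trained against sedentary. Fibroblast markers summed to 384.4 to 441.3 against 326.5 to 353.1 FPKM. Schwann cell markers summed to 73.5 to 99.4 against 103.6 to 149.5 FPKM, and adipocyte markers to 36.5 to 77.0 against 12.6 to 25.5 FPKM. With the strNrip1-/- label, every marker sum overlapped between trained and sedentary libraries. Trained libraries labelled strNrip1-/- held 340.0 to 384.3 FPKM of fibroblast markers. The part of these shifts in the results below was not tested. In such bulk RNA, fewer cells of a type and less RNA per cell cannot be told apart.

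Per length of transcript, 2 of the 10 genes stood far above the rest. Esrra and Perm1 were highest in each of the 4 groups, with group means between 63.0 and 120.2 FPKM. Their libraries did not overlap in 2 groups (Esrra higher in sedentary libraries labelled WT and in trained libraries labelled strNrip1-/-) and overlapped in the other two. Ppard came next at 14.7 to 18.0 FPKM, apart from its neighbors on either side in every group. Below it, Nrf1, Gabpa, Ppargc1a, Ppara, Ppargc1b and Esrrg lay between 3.15 and 7.54 FPKM as group means, and most neighbors in this order overlapped. Esrrb was lowest in every group at 1.34 to 2.52 FPKM and did not overlap with the gene above it. The order within the middle band changed between groups, and Ppargc1b moved from the ninth place in trained libraries labelled WT to the fourth in trained libraries labelled strNrip1-/-. The panels of levels by library show all 12 values of each gene.

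**Figure D1:**
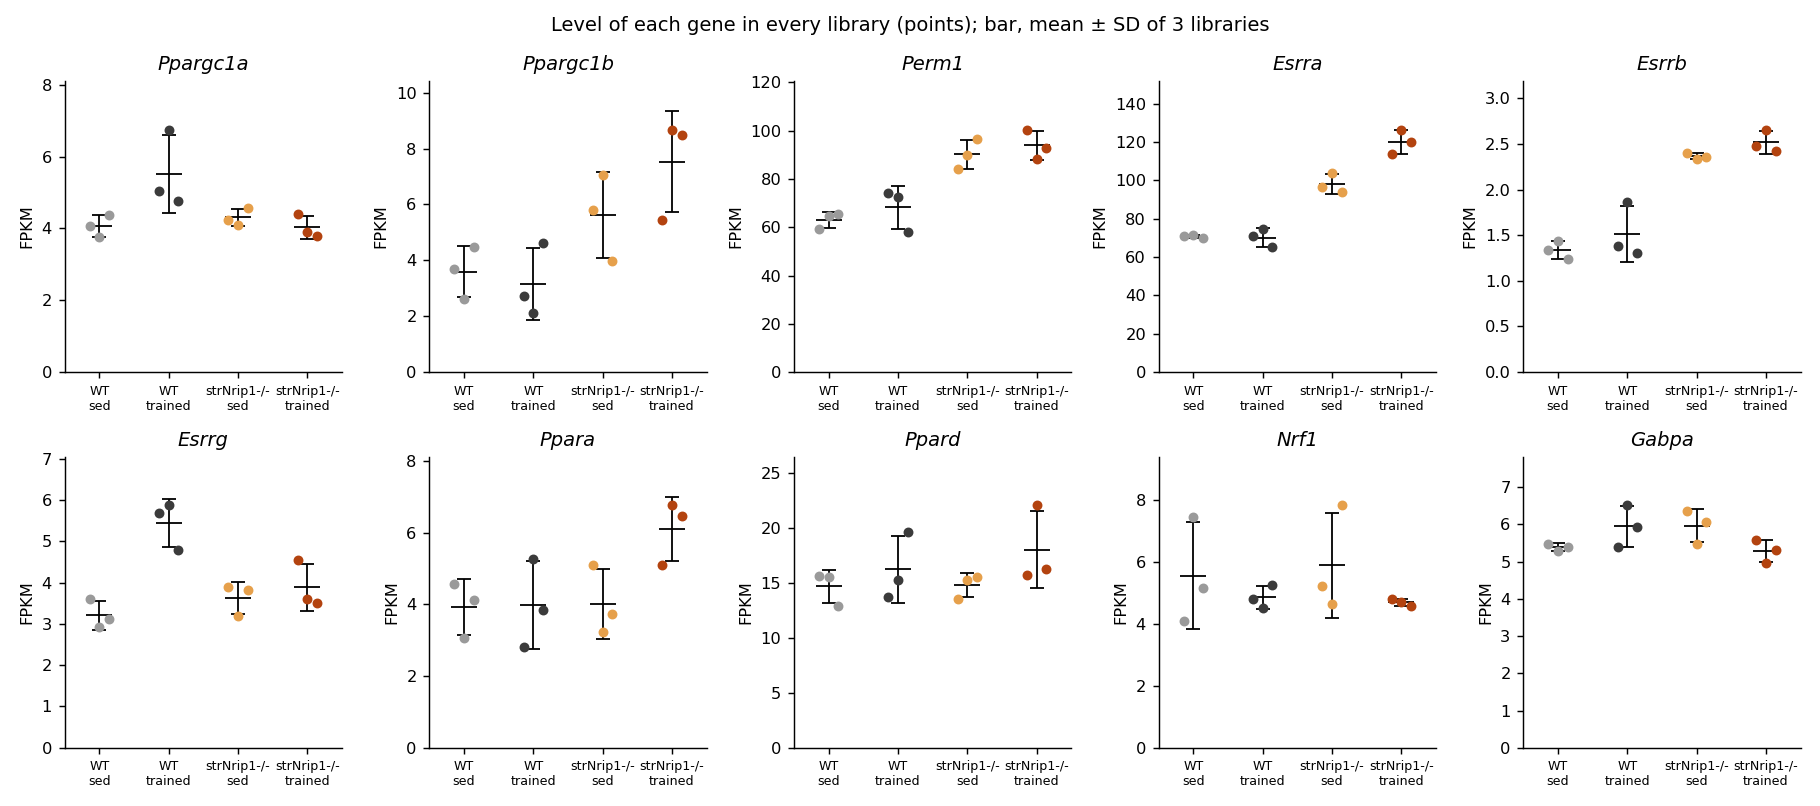
Level of each of the 10 genes in every library, in FPKM from 0 (vertical axis, a scale of its own for each gene), in the 4 groups by label; points are libraries, and bars give the mean ± SD of 3. Perm1, Esrra and Esrrb were higher in all 6 libraries labelled strNrip1-/- than in all 6 labelled WT, while Ppargc1a and Esrrg were highest in the trained libraries labelled WT.

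The first question was which of these regulators differed between the labelled genotypes. In sedentary muscle, Perm1, Esrra and Esrrb were higher in the libraries labelled strNrip1-/-, by 1.38- to 1.56-fold. In trained muscle the same 3 genes and Ppargc1b were higher, by 1.38- to 2.25-fold. None of the 10 was lower past the threshold in either comparison. A gene was called at a limma p below 0.05 after Benjamini-Hochberg adjustment over all 12744 genes together with a fold above 1.2 on the log2(FPKM + 0.5) scale. The 3 of 10 called higher in sedentary libraries stood beside 1.92% of all genes called higher (3.51% called in either direction and 1.59% called lower), and the 4 of 10 in trained libraries beside 3.21% (5.98% in either direction and 2.77% lower). Averaged over training, 4 of 10 were higher, beside 4.90% of all genes called higher, 3.91% called lower and 8.80% called in either direction. The median log2 difference of the 10 genes was 0.14 in sedentary and 0.31 in trained libraries, and that of all genes tested was 0.00 and 0.01. Without overlap between the 3 libraries on each side, 4 genes were higher in sedentary libraries (Perm1, Esrra, Esrrb and Gabpa), as were 9.79% of all genes, and 0 were lower, as were 10.9% of all genes. In trained libraries, 4 were higher without overlap (13.9% of all genes) and 2 were lower, Ppargc1a and Esrrg (13.4% of all genes). Perm1, Esrra and Esrrb were also higher in all 6 libraries labelled strNrip1-/- than in all 6 labelled WT, which held for 2.97% of all genes. The comparisons in sedentary and in trained muscle share no library, but all 12 libraries share the estimate of the spread.

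**Figure D2:**
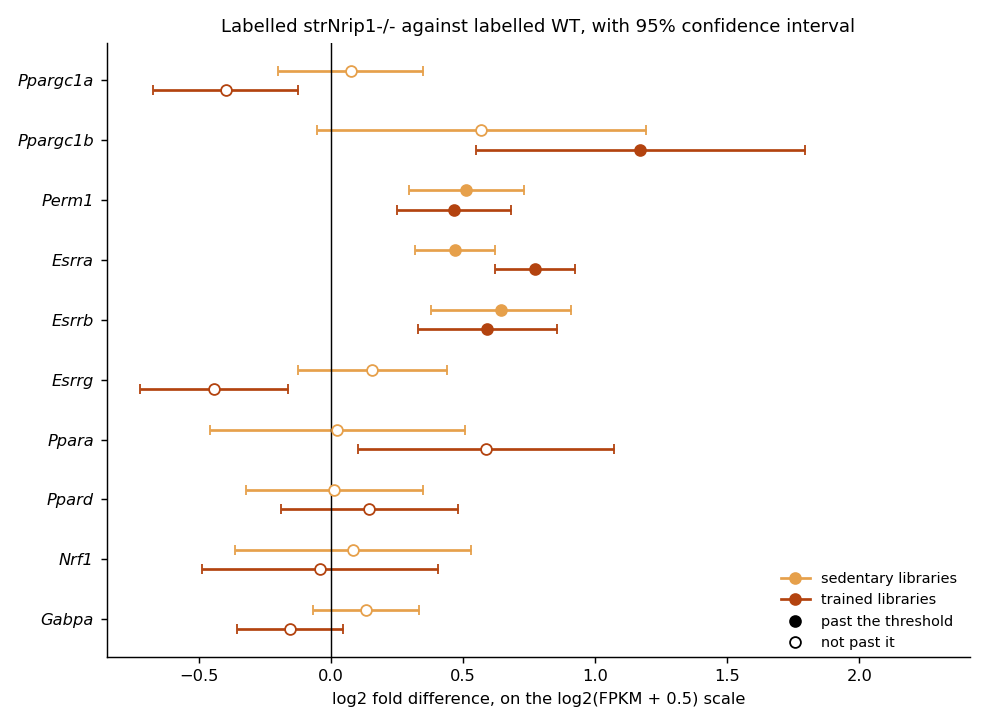
Difference between libraries labelled strNrip1-/- and labelled WT for each gene (horizontal axis, log2 fold difference on the log2(FPKM + 0.5) scale; points are estimates from 3 against 3 libraries and bars their 95% confidence intervals), in sedentary and in trained libraries; filled points passed the threshold. Perm1, Esrra and Esrrb lie to the right of 0 in both, Ppargc1b passed in trained libraries, and the estimates of Ppargc1a and Esrrg in trained libraries lie to the left without passing.

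Among the coactivators, Perm1 was the most abundant. Perm1 is a muscle-restricted regulator that is itself induced by PGC-1 and the ERRs and acts with them on oxidative genes. It lies at chr4:156215868-156221307 on the plus strand (mm10) and has a single annotated transcript. Its level was 59.1, 64.7 and 65.3 FPKM in the sedentary and 74.1, 72.6 and 57.9 FPKM in the trained libraries labelled WT. In the libraries labelled strNrip1-/- it was 84.2, 89.8 and 96.5 FPKM when sedentary and 100.5, 88.5 and 93.0 FPKM when trained. The lowest library labelled strNrip1-/- therefore stood above the highest labelled WT. The difference was 1.43-fold in sedentary libraries (log2 0.51, SE 0.0986, limma with Benjamini-Hochberg adjusted p = 0.0167) and 1.38-fold in trained libraries (log2 0.47, SE 0.0986, adjusted p = 0.0194). Averaged over training it was 1.40-fold (adjusted p = 0.00117). The sedentary call was lost when libraries were scaled to the same FPKM sum (adjusted p = 0.0614) and without sedentary library 1 or 2 labelled WT or sedentary library 3 labelled strNrip1-/- (adjusted p up to 0.0830). The trained call was lost without trained library 3 labelled WT or trained library 1 or 3 labelled strNrip1-/- (adjusted p up to 0.0687), in a fit on the compared libraries alone (adjusted p = 0.0683), and with GC and length trends removed together with a replicate block (adjusted p = 0.0661).

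The sequence before the start of Perm1 is shown because it was the only one of the windows searched to hold the extended ERR element, AAGGTCA on either strand. RefSeq promoters on GRCm38.p6 were searched for 9 of the 10 genes, in 14 windows of 250 bases before a listed start. No window of Ppargc1b was searched. The search covered 4 motifs on both strands. The extended ERR element occurred in 4.08% of 32851 promoters of the same length. In Perm1 it begins 202 bases before the listed start and is read on the opposite strand. Below is chr4:156215677-156215867, plus strand, 5′ to 3′, the part of that window before the annotated gene, with the match in capitals.
Perm1: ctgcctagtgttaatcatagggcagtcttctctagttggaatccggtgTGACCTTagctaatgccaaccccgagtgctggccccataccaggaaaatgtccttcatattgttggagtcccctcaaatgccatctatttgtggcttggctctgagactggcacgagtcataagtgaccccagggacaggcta

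Ppargc1b, which encodes the coactivator PGC-1β, had the largest estimate of the 10 in trained muscle. It stood at 3.70, 2.63 and 4.46 FPKM in the sedentary and 2.73, 2.10 and 4.60 FPKM in the trained libraries labelled WT. The sedentary libraries labelled strNrip1-/- held 5.78, 7.05 and 3.99 FPKM, and the trained ones 5.43, 8.68 and 8.50 FPKM. The trained groups did not overlap, whereas sedentary library 3 of the strNrip1-/- label lay below library 3 of the WT label. In trained libraries the difference was 2.25-fold (log2 1.17, SE 0.284, adjusted p = 0.0342 by limma), and averaged over training 1.83-fold (log2 0.87, SE 0.200, adjusted p = 0.0175). In sedentary libraries the estimate was 1.48-fold with a 95% confidence interval from 0.963- to 2.29-fold. The call in trained libraries was lost in 10 of 24 alternatives, among them the exclusion of trained library 1 or 2 labelled WT or of trained library 2 or 3 labelled strNrip1-/- (adjusted p 0.0914 to 0.127) and, more narrowly, of sedentary library 1 of either label (adjusted p up to 0.0516), while the call averaged over training held in all 23.

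Ppargc1a encodes PGC-1α, the coactivator best known for its induction by exercise, and its transcripts start at several promoters that the table sums into a single value. Its level was 4.06, 3.76 and 4.38 FPKM in the sedentary libraries labelled WT and 5.03, 6.75 and 4.76 FPKM in the trained ones. In the libraries labelled strNrip1-/- it was 4.24, 4.10 and 4.58 FPKM when sedentary and 4.40, 3.90 and 3.78 FPKM when trained. The trained libraries labelled WT thus held the 3 highest values of the 12. In trained muscle the estimate for the strNrip1-/- label was 0.760-fold (log2 -0.40, SE 0.125, limma adjusted p = 0.0898), which did not pass, and in sedentary muscle it was 1.05-fold with an interval from 0.871- to 1.27-fold. Without trained library 2 labelled WT, the highest of the 12, the trained estimate was log2 -0.25. The window before the listed Ppargc1a start, shown for comparison with that of Perm1 and with Esrra below, held none of the 4 motifs. It is chr5:51567727-51567975, minus strand, 5′ to 3′.
Ppargc1a: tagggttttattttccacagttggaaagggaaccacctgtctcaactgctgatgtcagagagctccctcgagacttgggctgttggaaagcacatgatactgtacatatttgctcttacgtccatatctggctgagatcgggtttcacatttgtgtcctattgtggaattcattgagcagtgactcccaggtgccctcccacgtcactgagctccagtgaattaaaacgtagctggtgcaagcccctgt

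The ERR family differed between its members. Esrra and Esrrb were higher in libraries labelled strNrip1-/- whether sedentary or trained, and Esrrg was not. Esrra encodes ERRα, the main ERR partner of PGC-1 in muscle, and is found at chr19:6910977-6921813, minus strand. It stood at 70.8, 71.3 and 69.8 FPKM in the sedentary and 70.9, 74.5 and 65.1 FPKM in the trained libraries labelled WT. With the strNrip1-/- label it was 96.6, 103.7 and 94.0 FPKM when sedentary and 113.9, 126.5 and 120.2 FPKM when trained. Neither the labelled genotypes nor, within the strNrip1-/- label, the trained and sedentary libraries overlapped. The genotype difference was 1.38-fold in sedentary libraries (log2 0.47, SE 0.0687, limma adjusted p = 0.00416) and 1.71-fold in trained libraries (log2 0.77, SE 0.0687, adjusted p = 1.72e-04). Both calls held in all 25 alternatives, with adjusted p of at most 0.0352 in sedentary and 0.00770 in trained libraries. Esrra shares 73 exonic bases with Trmt112 on the opposite strand (mean 31.5 FPKM) and 91 with the microRNA gene Mir6990, and the library kit does not mark strand.

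The Esrra promoter is shown because this gene had the smallest adjusted p of the 10 and because its window held the core of the NRF1 motif, GCATGCG. That core was found in 3.02% of all 32851 promoters searched, and it begins 34 bases before the listed Esrra start. Among the other windows it was present in those of Ppara and Gabpa and in 1 of 4 windows of Esrrg, on both strands in overlapping matches in Ppara and Gabpa. The ETS core CCGGAAG, which factors of the GABP family bind, was present in Gabpa (6.91% of the promoters searched). The PPAR element DR1, AGGTCANAGGTCA, was present in none of the 14 windows, and in 0.0335% of the promoters searched. The sequence below is chr19:6921814-6922058, minus strand, 5′ to 3′, with the NRF1 core in capitals.
Esrra: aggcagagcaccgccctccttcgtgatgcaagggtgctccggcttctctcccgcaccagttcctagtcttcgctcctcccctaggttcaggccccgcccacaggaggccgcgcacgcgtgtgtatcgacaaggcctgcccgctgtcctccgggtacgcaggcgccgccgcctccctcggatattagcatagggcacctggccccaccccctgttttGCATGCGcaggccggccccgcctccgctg

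Esrrb encodes ERRβ, the least abundant of the family here. It was 1.34, 1.43 and 1.24 FPKM in the sedentary and 1.38, 1.86 and 1.30 FPKM in the trained libraries labelled WT. Libraries labelled strNrip1-/- held 2.40, 2.34 and 2.36 FPKM when sedentary and 2.47, 2.66 and 2.42 FPKM when trained. All 6 of them stood above the highest library labelled WT. The difference was 1.56-fold in sedentary libraries (log2 0.64, SE 0.120, limma adjusted p = 0.0148) and 1.51-fold in trained libraries (log2 0.59, SE 0.120, adjusted p = 0.0162), on a scale that understates the change of a gene this low. The sedentary call was lost without sedentary library 1 or 3 labelled WT or sedentary library 1 labelled strNrip1-/-, the trained call without trained library 1 or 3 labelled WT or trained library 2 or 3 labelled strNrip1-/-, and both in fits on the 6 libraries of the comparison alone (adjusted p up to 0.0766). The difference averaged over training, 1.53-fold with adjusted p = 9.31e-04, held in all 23 alternatives.

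Esrrg encodes ERRγ, which is known for its high level in slow, oxidative fibers. Its level was 3.60, 2.91 and 3.12 FPKM in the sedentary and 5.68, 5.87 and 4.78 FPKM in the trained libraries labelled WT. It was 3.90, 3.19 and 3.82 FPKM in the sedentary and 4.54, 3.59 and 3.52 FPKM in the trained libraries labelled strNrip1-/-. As for Ppargc1a, the trained libraries labelled WT held the 3 highest values. The genotype estimate was 0.736-fold in trained muscle (log2 -0.44, SE 0.128, limma adjusted p = 0.0686) and 1.12-fold in sedentary muscle, with an interval from 0.918- to 1.36-fold. Neither passed, although the first did without trained library 1 labelled strNrip1-/- (adjusted p = 0.0410) and with sample weights (adjusted p = 0.0468).

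The PPARs and the nuclear respiratory factors showed no difference past the threshold. Ppara, the PPAR of fasting and fatty acid oxidation, was 4.58, 3.06 and 4.13 FPKM in the sedentary and 2.83, 5.28 and 3.86 FPKM in the trained libraries labelled WT. In the libraries labelled strNrip1-/- it was 5.10, 3.23 and 3.72 FPKM when sedentary and 5.11, 6.77 and 6.47 FPKM when trained. The trained libraries labelled strNrip1-/- held 3 of the 4 highest values, but trained library 2 labelled WT lay among them. The genotype estimate in trained muscle was 1.50-fold (log2 0.59, SE 0.220, limma adjusted p = 0.149), and log2 0.39 without trained library 1 labelled WT. Ppard, the more abundant PPAR of muscle, ranged from 12.9 to 15.6 FPKM and from 13.7 to 19.6 FPKM in the sedentary and trained libraries labelled WT, and from 13.6 to 15.5 FPKM and from 15.7 to 22.0 FPKM in those labelled strNrip1-/-. Its labelled genotypes overlapped in both comparisons.

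Nrf1, which encodes nuclear respiratory factor 1, ranged from 4.08 to 7.44 FPKM in the sedentary and from 4.50 to 5.25 FPKM in the trained libraries labelled WT. The ranges with the strNrip1-/- label were 4.64 to 7.83 FPKM and 4.56 to 4.81 FPKM. The trained groups were thus tight and the sedentary ones spread, with an interval for the sedentary genotype difference from 0.778- to 1.45-fold. Gabpa encodes the DNA-binding subunit of GABP. It was 5.29 to 5.48 FPKM and 5.39 to 6.51 FPKM in the sedentary and trained libraries labelled WT, and 5.48 to 6.35 FPKM and 4.97 to 5.58 FPKM in those labelled strNrip1-/-. Its sedentary groups were apart by a narrow gap, and the interval of that difference was 0.953- to 1.26-fold. Gabpa shares 397 exonic bases with Atp5j on the opposite strand, whose mean was 693.7 FPKM, and reads from the pair cannot be told apart there without strand.

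The second question was whether training moved these genes. None of the 10 passed the threshold with either label, and neither did any other gene tested (0% of 12744 in each comparison by limma), although 1061 genes in libraries labelled WT and 1544 in those labelled strNrip1-/- had an unadjusted p below 0.05. With the WT label, Esrrg was 1.60-fold in trained against sedentary libraries (log2 0.68, SE 0.128, limma adjusted p = 0.201) and Ppargc1a 1.30-fold (log2 0.38, SE 0.125, adjusted p = 0.464; log2 0.24 without trained library 2). Both groups were free of overlap for these 2 genes, as they were, with trained libraries higher, for 7.76% of all genes; none of the 10 was lower without overlap, as 6.50% of all genes were. With the strNrip1-/- label, Esrra was 1.22-fold (log2 0.29, SE 0.0687, limma adjusted p = 0.200) and Ppara 1.48-fold (log2 0.56, SE 0.220, adjusted p = 0.346). Trained libraries were higher without overlap for 4 genes here, Esrra, Esrrb, Ppara (5.106 against 5.104 FPKM at the nearest) and Ppard, and for 9.40% of all genes, and lower for 0 of the 10 and 7.50% of all genes. The fold estimates given for Esrrg, Ppargc1a, Esrra and Ppara are those with an unadjusted p below 0.05. Esrra passed with the strNrip1-/- label where libraries were scaled to the same FPKM sum (log2 0.47, adjusted p = 0.0286), a scaling that put the median of all genes at 0.165 in this comparison and Esrra 0.30 above that median. Averaged over both labels, 0 of the 10 and 0.118% of all genes passed (0.0785% higher and 0.0392% lower), with Esrrg at 1.30-fold (adjusted p = 0.130) and Esrra at a log2 difference of 0.14 (SE 0.0486, adjusted p = 0.271), and 1466 genes had an unadjusted p below 0.05. No gene of the 10 had its 6 trained libraries all above or all below its 6 sedentary ones, which held for 0.377% and 0.416% of all genes.

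**Figure D3:**
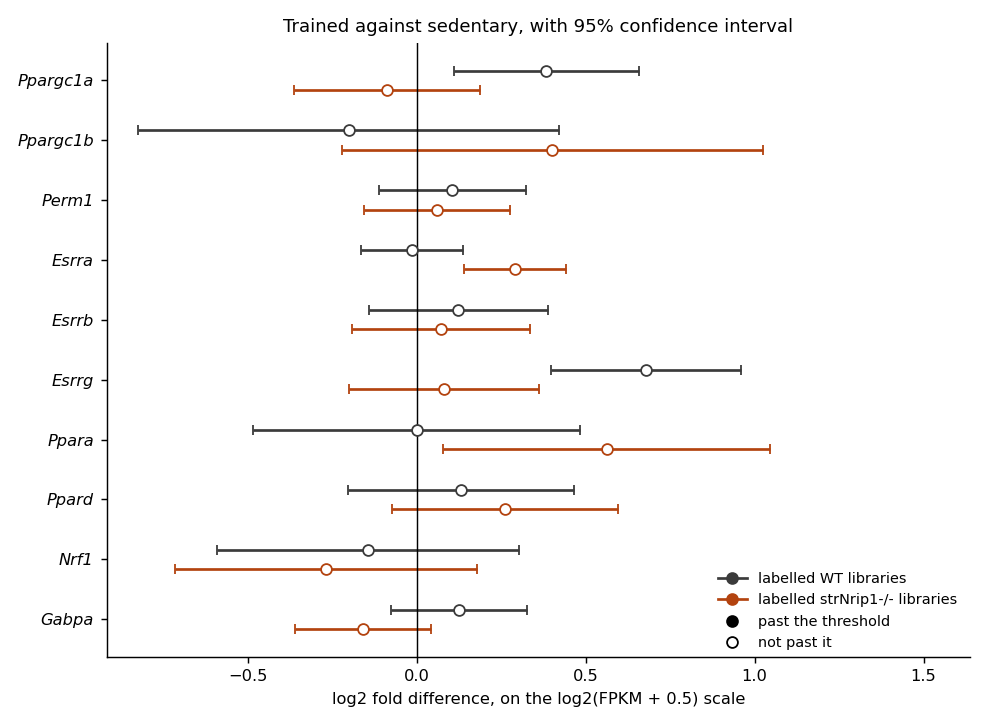
Difference between trained and sedentary libraries for each gene (horizontal axis, log2 fold difference on the log2(FPKM + 0.5) scale; points are estimates from 3 against 3 libraries and bars their 95% confidence intervals), in libraries labelled WT and labelled strNrip1-/-; open points did not pass the threshold, and none did. The intervals of Esrrg and Ppargc1a exclude 0 with the WT label, and those of Esrra and Ppara with the strNrip1-/- label.

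Whether the training effect differed between the labels was tested as an interaction in the same model. It passed for 0 of the 10 genes and for 0% of all genes, while 989 of 12744 genes had an unadjusted p below 0.05. The estimates with unadjusted p below 0.05 were those of Esrra (log2 0.30, SE 0.0971, limma adjusted p = 0.566), Esrrg (-0.60, SE 0.181, adjusted p = 0.561), Ppargc1a (-0.47, SE 0.176, adjusted p = 0.605) and Gabpa (-0.29, SE 0.129, adjusted p = 0.640) where a positive value stands for a larger trained-minus-sedentary difference with the strNrip1-/- label. A difference in the response to training was thus not shown for any of them.

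Levels within a family, which share the scale of FPKM, gave the balance of its members. The ratio of Ppargc1b to Ppargc1a was 0.877 ± 0.163 in the sedentary and 0.608 ± 0.333 in the trained libraries labelled WT, and 1.32 ± 0.425 and 1.90 ± 0.578 in the sedentary and trained libraries labelled strNrip1-/- (mean ± SD of 3 libraries). In trained muscle the lowest ratio with the strNrip1-/- label, 1.24, was above the highest with the WT label, 0.968, and in sedentary muscle the ranges overlapped. Esrra made up between 91.0% and 94.9% of the summed ERR level as a group mean. The ERR sum was 75.2 ± 0.874 FPKM and 77.1 ± 5.59 FPKM in the sedentary and trained libraries labelled WT, and 104.1 ± 4.61 FPKM and 126.6 ± 5.93 FPKM in those labelled strNrip1-/-. Esrrg took 7.05% ± 0.294 of it in the trained libraries labelled WT, against 4.27% ± 0.452 in the sedentary ones and 3.51% ± 0.507 and 3.08% ± 0.584 in the sedentary and trained libraries labelled strNrip1-/-. The 3 trained libraries labelled WT (6.71% to 7.28%) stood above the other 9, of which the highest was 4.75%. Among the PPARs, Ppard held 67.5% to 73.7% of the sum of Ppara, Ppard and Pparg in each group. These shares are descriptions and were not tested.

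**Figure D4:**
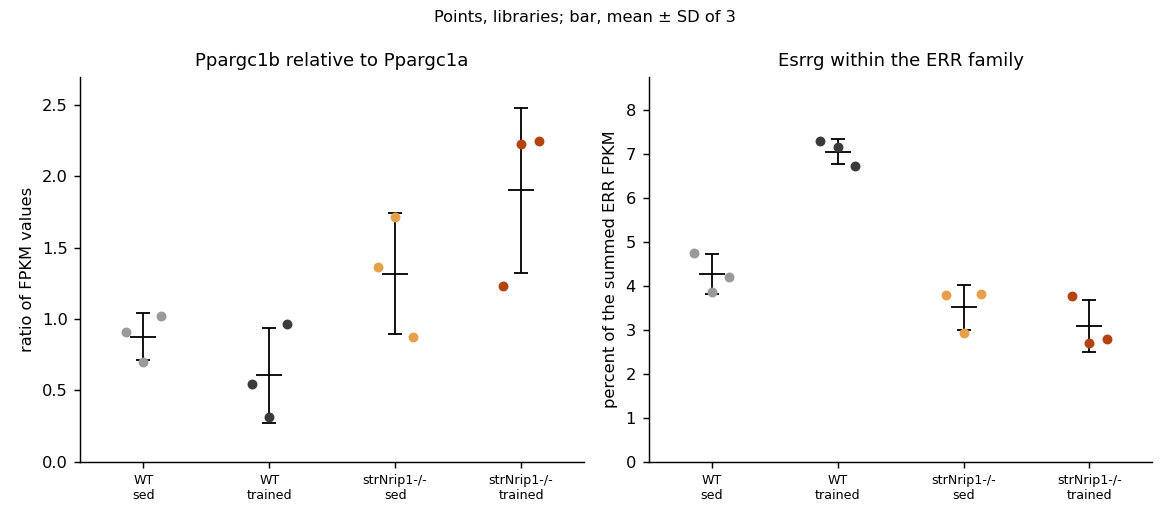
Left, ratio of the Ppargc1b to the Ppargc1a level, and right, share of Esrrg in the summed level of Esrra, Esrrb and Esrrg in percent, for each library in the 4 groups by label; points are libraries and bars the mean ± SD of 3. The ratio lies between 1.24 and 2.25 in trained libraries labelled strNrip1-/- and below 1 in those labelled WT, and the Esrrg share lies between 6.71% and 7.28% in trained libraries labelled WT.

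Genes that work with the 10 or under them were followed in 4 lists. Of 25 partners and coregulators, which included the retinoid X receptors, the NCOA and NCOR families and the GABP β subunits, 0 were higher and 1 was lower with the strNrip1-/- label in sedentary, trained and averaged comparisons alike, beside 1.59%, 2.77% and 3.91% of all genes called lower. The list's median log2 difference averaged over training was -0.02, beside 0.00 over all genes tested. The gene that fell was Rxrg, a retinoid X receptor of skeletal muscle and a DNA-binding partner of the PPARs. It went from 33.8 ± 4.83 FPKM to 24.7 ± 0.410 FPKM in sedentary and from 34.5 ± 1.86 FPKM to 20.4 ± 1.18 FPKM in trained libraries (averaged log2 -0.59, SE 0.0688, limma adjusted p = 3.35e-04). Rxra and Flcn, named after their values were seen, had averaged log2 differences of -0.23 each (adjusted p = 0.0498 and 0.0423) and did not reach the fold threshold.

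Known PPAR target genes were higher with the strNrip1-/- label in 12 of 20 cases in sedentary and 15 of 20 in trained libraries, and 14 of 20 averaged over training, with none lower, beside 1.92%, 3.21% and 4.90% of all genes called higher. These shares are not matched for level, and most genes of the target lists averaged above 5 FPKM. With that mean required, 484, 784 and 898 of 6849 genes were called in either direction in sedentary, trained and averaged comparisons. Over all genes tested it was 447, 762 and 1122 of 12744. Their median log2 difference was 0.59 in sedentary and 0.61 in trained libraries, against 0.00 and 0.01 over all genes tested. Fabp3, a fatty acid carrier of heart and oxidative muscle, was the largest, from 366 ± 42.1 FPKM to 1433 ± 140 FPKM in sedentary and from 439 ± 86.1 FPKM to 1745 ± 152 FPKM in trained libraries (averaged log2 1.99, SE 0.0984, limma adjusted p = 8.25e-07). Plin5, a coat protein of lipid droplets in oxidative tissue, followed at 1.67 (SE 0.180, adjusted p = 1.74e-04). The acyl-CoA thioesterase Acot2 (0.74, SE 0.161, adjusted p = 0.0134) and the carnitine-acylcarnitine carrier Slc25a20 (0.73, SE 0.0731, adjusted p = 1.04e-04) came next. Plin2, named after its values were seen, was the only gene of the list with a lower estimate (-0.26, adjusted p = 0.166). The PPAR genes themselves did not pass in these comparisons, with intervals for the averaged difference from 0.976- to 1.57-fold for Ppara and from 0.897- to 1.25-fold for Ppard. Some PPAR targets are also used by adipocytes and endothelial cells, whose marker sums moved as given above.

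Targets of the ERRs and PGC-1 were higher in 12 of 20 cases in sedentary, 12 of 20 in trained and 16 of 20 in averaged comparisons, again with none lower, beside the same shares of all genes (1.92%, 3.21% and 4.90%). The median log2 differences were 0.36, 0.47 and 0.41, and all 20 estimates were above 0 in each. Myoglobin (Mb), the oxygen store of oxidative fibers, went from 2573 ± 559 FPKM to 4682 ± 971 FPKM in sedentary and from 2919 ± 500 FPKM to 4914 ± 484 FPKM in trained libraries (averaged log2 0.81, SE 0.134, limma adjusted p = 0.00293). Ckmt2, the mitochondrial creatine kinase of muscle (0.69, SE 0.0844, adjusted p = 4.54e-04), Etfa, an electron carrier for fatty acid oxidation (0.66, SE 0.0739, adjusted p = 2.43e-04), and Atp5a1, a subunit of ATP synthase (0.51, SE 0.0583, adjusted p = 2.93e-04), were next. Esrra itself stood at 0.62 on the same averaged log2 scale.

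Of 12 targets of NRF1 and GABP, 1 was higher in sedentary and in trained libraries and 2 averaged over training, where 1.92%, 3.21% and 4.90% of all genes were called higher. The median averaged log2 difference of the list was 0.17. The genes called were Alas1, the first enzyme of heme synthesis (0.51, SE 0.0600, limma adjusted p = 3.40e-04), and the cytochrome oxidase subunit Cox4i1 (0.45, SE 0.119, adjusted p = 0.0334). The difference between the lists was not tested. Each gene was placed in a single list by choice, although a gene can be a target of several of these factors, so the medians depend on that choice. Training called no gene of the 4 lists with either label, beside 0% of all genes.

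**Figure D5:**
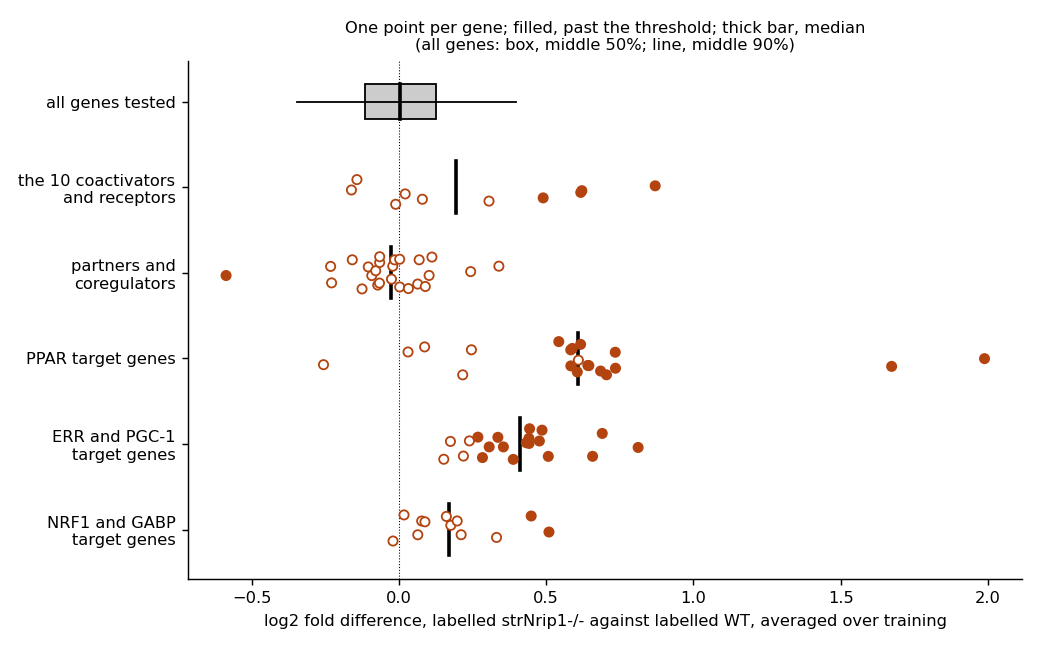
Difference between libraries labelled strNrip1-/- and labelled WT averaged over training (horizontal axis, log2 fold difference) for each gene of the 10 and of the 4 lists; points are genes, filled where they passed the threshold, and thick bars are medians, with the spread of all 12744 genes tested at the top. PPAR targets center on 0.61 and ERR and PGC-1 targets on 0.41, against 0.17 for NRF1 and GABP targets and -0.02 for partners and coregulators.

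The genes whose levels followed each regulator most closely were named by Pearson's r over the 12 libraries, among the 11265 genes that averaged 1 FPKM or more, on log2(FPKM + 0.5). These values describe 12 libraries in 4 groups that share depth and label, and have no test. The closest to Esrra was Acads (r = 0.986, Spearman's rho = 0.972), the short-chain acyl-CoA dehydrogenase of fatty acid oxidation. The closest to Esrrb were Fam185a (r = 0.986), Hadha, a subunit of the mitochondrial trifunctional protein (r = 0.983), and Fabp3 (r = 0.979). Perm1 was followed most closely by Nceh1 (r = 0.983) and Dnaja3, a mitochondrial chaperone (r = 0.976). Lower values were reached by the genes that did not split by label. Ppargc1a was closest to Aplp2 (r = 0.938) and also close to Nr1d2, a nuclear receptor of the circadian clock (r = 0.901), and Esrrg was closest to Clic4 (r = 0.888). The closest to Ppargc1b was Lmo4 (r = 0.929) and to Ppara Irf2bpl (r = 0.956). Ppard was nearest to Pprc1, the remaining member of the PGC-1 family (r = 0.878, rho = 0.748), Nrf1 to Zfp799 (r = 0.911) and Gabpa to Dnm1l, a mitochondrial fission enzyme (r = 0.867).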

How the data were processed

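RNA of 12 EDL muscle samples, 3 in each of 4 groups given by the labels, was sequenced by the authors with a kit that does not mark strand. Per the study's methods and processing notes, the authors quantified reads with Salmon 1.10.2 on mm10, used tximport for gene-level counts and ran DESeq2 1.44.0. The deposited table holds FPKM values for 17752 genes. The other 8 columns hold log2 fold changes and adjusted p-values of the authors' own comparisons, which were not used. Every deposited FPKM column is named for a sample. FPKM are not counts, so the count test of the study was replaced by limma 3.58.1 in R 4.3.3 (4 group means, variance prior with trend) on log2(FPKM + 0.5), over the 12744 genes that averaged 0.5 FPKM or more. Pairs of replicates differed by more than sampling noise. Trained library 2 labelled WT differed most from its replicates, with a chi-square per degree of freedom of 36.3 and 33.7, against 5.78 to 19.9 in all other pairs. Depth, 20.2 to 29.4 M fragments, was estimated from the spacing of low values in 1613 single-transcript genes; of the 400 to 461 low values per library, 99.1% to 99.6% came out whole within 0.15 (30% by chance). It covers counting error only; 3 fragments of a 2-kb gene are 0.0621 to 0.0902 FPKM. On simulated data, 48% of 1.5-fold and 69% of 2-fold changes were recovered in the sedentary genotype comparison over 12744 genes. The 10 genes and the lists were chosen with earlier results of these data known, and the lists give no independent support. Each of the 10 is given in every library; fold, SE and adjusted p are given where the unadjusted p was below 0.05; lists give counts, and up to 4 called genes of largest averaged difference; 3 likest genes by r were found for each. Promoters are from RefSeq (GRCm38.p6) and gene positions from GENCODE on the same build. Alternatives were other pseudocounts, filters, scalings, weights and priors, a replicate block, removal of GC and length trends, fits on the compared libraries, and leaving out each library.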

Additional observations from a re-analysis of the deposited data

How the results depend on the processing

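Of the 24 gene and comparison pairs with unadjusted p below 0.05, which gave 576 values over the alternatives, 545 kept their direction and their side of the threshold, 28 lost the call, 3 gained it and 0 reversed. Esrra kept its genotype calls in every refit, and the 4 calls averaged over training were kept in every refit that could hold the gene. With each library left out in turn, the number of the 10 genes called ranged from 1 to 3 in sedentary libraries (1 without sedentary library 1 labelled WT) and from 1 to 4 in trained libraries (1 without trained library 3 labelled strNrip1-/-, and 2 without trained library 1 or 3 labelled WT or trained library 2 labelled strNrip1-/-), and stayed at 4 averaged over training and at 0 for training and the interaction. With a mean of at least 5 FPKM required, 2 genes were called in trained libraries and 2 averaged over training. This filter removes Ppargc1b and Esrrb from the test, and also Ppargc1a, Esrrg and Ppara. In trained libraries, 1 was called in a fit on the compared libraries alone, which has fewer samples and its own estimate of the spread. With libraries scaled to the same FPKM sum, 1 gene, Esrra, was called for training with the strNrip1-/- label. Apart from the genes that the filter removed, the cause of these changes was not tested.

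Replicate numbers were not taken to pair the libraries, and whether they do was not tested. Deviations of same-numbered libraries from their group means correlated between -0.105 and 0.241, 5 of 18 above 0.1. Those of differently numbered libraries correlated between -0.251 and 0.196, 3 of 36 above 0.1. Of the 12 libraries, 4 were closest to a library of their own number. With the replicate block, Ppargc1b lost its call in trained libraries (adjusted p = 0.0510), and 3 genes were called in that comparison. With the block and GC and length trends removed, 2 were called in trained libraries, where Perm1 (adjusted p = 0.0661) and Ppargc1b (adjusted p = 0.0639) lost their calls.

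Scaling moved the balance of calls over all genes. In sedentary libraries, 54.8% of called genes were higher with the strNrip1-/- label as deposited, 18.6% with the same FPKM sum (median of all genes -0.138 on the log2 scale) and 82.7% with the same sum over nuclear genes. In trained libraries, the share was 53.7% as deposited, 80.9% with the same sum and 75.8% over nuclear genes. Averaged over training, it was 55.6%, 45.0% and 77.5%. The interaction's median moved to 0.205 with the same sum. For training averaged over the labels, it was 66.7%, 80.8% and 63.2%. Over all genes and alternatives, calls numbered 163 to 690 in sedentary libraries (447 as reported), 315 to 1366 in trained libraries (762), 849 to 1497 averaged over training (1122), 0 to 30 and 0 to 150 for training with the WT and strNrip1-/- labels (0 and 0), 1 to 190 for training averaged (15) and 0 to 1 for the interaction (0). Among estimates that did not pass, the interaction of Esrra was log2 0.52 with the same sum and 0.16 with GC and length trends removed, that of Gabpa -0.08 and -0.17, and that of Ppargc1a -0.27 with the same sum. What depth limits was estimated for Perm1 and, at an assumed length, for Esrrb, and was not compared over the 10 genes.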
